A study of Mus musculus with 24 samples.

Results

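Protein phosphatase subunit genes were examined in maps of m6A, the methylation of RNA adenosines at the N6 position, from mouse oocytes and preimplantation embryos. The set held every protein-coding gene whose symbol starts with Ppp, a digit from 1 to 6, and then c for a catalytic or r for a regulatory subunit, without Ppp1r15a and Ppp1r15b. It counted 75 genes, 12 catalytic and 63 regulatory, of 21887 protein-coding genes on the mm10 chromosomes. A gene was called marked in a library when a peak of that library's list overlapped its gene body by at least 1 bp. The 8-cell embryos and blastocysts carried peaks on 25 to 31 regulatory genes per library, against 8 to 20 at the other stages, whereas catalytic genes stayed between 1 and 4 per library throughout. Over all protein-coding genes the marked share was 20.8% to 23.8% in those 4 libraries and 13.8% to 23.9% in the other 8. A different grouping sets embryonic libraries (2-cell, 8-cell and blastocyst) against maternal ones (GV oocyte, MII oocyte and zygote). Its mean regulatory difference, 9.17 genes, was 2.5 genes when only the higher-scoring peaks were kept. This limit took away a larger share of embryonic than of maternal peaks. The contrast of 8-cell embryos and blastocysts with the other stages is not given under it.

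The phosphoprotein phosphatases remove phosphate from serine and threonine, and a small number of catalytic subunits serve many substrates because regulatory subunits choose the target, the place or the activity. PP1 works with a large and unrelated group of targeting and inhibitory proteins. PP2A works as a trimer of a catalytic, a scaffold and a B-type subunit, and calcineurin pairs a catalytic subunit with a calcium-binding B subunit. In oocytes these enzymes are known for opposing the kinases that hold and then drive the meiotic divisions, and for protecting cohesin at centromeres. The m6A mark is read by proteins that act on the stability and translation of the RNA, and in most tissues it is densest near stop codons.

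The libraries, each made from a pool of C57BL/6N oocytes or embryos with the zona pellucida removed, covered 2-cell embryos, 8-cell embryos and blastocysts (the embryonic libraries) and germinal vesicle (GV) oocytes, metaphase II (MII) oocytes and zygotes (the maternal libraries), with 2 immunoprecipitated (IP) libraries per stage. The females were 8 weeks old and hormonally primed with PMSG in all groups, and those giving MII oocytes and embryos also received hCG. The embryos came from matings with males 8 weeks old and were collected 39 to 43 h (2-cell), 68 to 70 h (8-cell), 92 to 94 h (blastocyst) and 27 to 28 h (zygote) after hCG, MII oocytes 14 h after hCG, and GV oocytes, of the surrounded-nucleolus type, 48 h after PMSG. A pool held 100 embryos at the 2-cell, blastocyst and zygote stages, 100 or 51 8-cell embryos, 100 or 110 MII oocytes and 49 GV oocytes. Each library's peaks had been called separately, and the matching input libraries, 12 in number, are not analysed here.

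The embryonic lists held 7946 to 9553 peaks and the maternal lists 6914 to 11959. Read depth is not known from the lists. The peaks of the maternal lists had the higher significance, with a median −log10 q of 10.7 to 17.99 in the embryonic lists and 20.4 to 33.3 in the maternal lists. Of 9 oocyte marker genes, 0 to 3 were marked per embryonic library and the same 5 in each maternal library. The other 4, Oosp1 and the zona pellucida genes Zp1, Zp2 and Zp3, had no peak in any library. Of 8 trophectoderm markers, 5 or 6 were marked in each 8-cell and blastocyst library and 1 or 2 in every other library. Gata3 (4 embryonic and 6 maternal libraries) and Tfap2a (2 and 4) went the other way. Of 8 inner cell mass markers, 5 to 7 were marked per 8-cell or blastocyst library and 2 or 3 per other library, with Pou5f1 (2 and 5) going the other way. Of 8 markers of the 2-cell stage, 4 or 5 were marked per 2-cell library, 3 or 4 per 8-cell library, 0 per blastocyst library and 0 or 1 per maternal library. Of 12 cumulus and granulosa cell markers, 0 or 1 was marked per embryonic library, 3 or 4 per GV or MII library and 1 per zygote library, and 6 of the 12 had no peak in any library. The part of this marker difference in the results below was not tested. A gene without a peak may have a short supply of RNA, weak methylation or too few reads, and peak lists cannot tell these apart.

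Peaks at the very start of a gene are shown for 2 subunits on chromosome 11, because both lie across the annotated start and so include bases ahead of it. The stretches are from RefSeq GRCm38.p6, which shares its chromosome coordinates with mm10. They run 5′ to 3′ on the plus strand, from 150 bases before the annotated start to 30 bases after it. Capitals mark the bases inside every peak that was called there, in 2 libraries for Ppp2ca (MII oocyte replicate 1 and zygote replicate 1) and in 9 libraries for Ppp4r3b. The Ppp2ca stretch is chr11:52098674-52098853, and the Ppp4r3b stretch is chr11:29172826-29173005.
Ppp2ca: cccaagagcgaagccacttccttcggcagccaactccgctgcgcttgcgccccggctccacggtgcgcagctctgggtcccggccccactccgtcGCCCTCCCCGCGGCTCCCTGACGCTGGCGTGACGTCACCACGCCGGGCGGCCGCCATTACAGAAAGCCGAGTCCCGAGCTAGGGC
Ppp4r3b: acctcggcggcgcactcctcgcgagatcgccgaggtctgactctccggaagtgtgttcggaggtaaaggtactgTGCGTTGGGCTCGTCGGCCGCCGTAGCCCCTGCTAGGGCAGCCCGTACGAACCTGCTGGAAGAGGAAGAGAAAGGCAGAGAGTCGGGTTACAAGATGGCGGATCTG
The shared part began 55 bases before the annotated start of Ppp2ca and 76 bases before that of Ppp4r3b. GGAC, a common core of m6A sites, occurred 0 times on the plus strand of either stretch, and on the minus strand 2 times for Ppp2ca and 0 times for Ppp4r3b. These counts depend on the stretch chosen. In the longer stretches chr11:52098574-52098873 and chr11:29172726-29173025, it occurred on the plus strand 3 times for Ppp2ca and 1 time for Ppp4r3b. The peaks reached as far as 52098968 and 29173306, and most of that remaining part was not searched. Among 32851 RefSeq stretches of the same length and place, 72.7% held GGAC on either strand, and the matches are a description of letters only.

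Of the 75 genes, 49 were marked in at least 1 library, which is 65.3% of them, against 45.2% of all protein-coding genes. The share was alike in both classes, with 8 of 12 catalytic genes (66.7%) and 41 of 63 regulatory genes (65.1%). The median gene body was 23277 bp in the set and 17169 bp over all protein-coding genes, and the part of gene length in these shares was not tested. Among marked genes alone the medians were 27456 bp in the set and 28665 bp over all genes.

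By stage, marked regulatory genes numbered 18.5 ± 2.12 at the GV stage, 14 ± 5.66 at MII, 11 ± 4.24 in zygotes, 16 ± 2.83 in 2-cell embryos, 26 ± 1.41 in 8-cell embryos and 29 ± 2.83 in blastocysts (SD, n = 2 each). The 2 last stages did not overlap with any earlier library. Marked catalytic genes numbered 3 ± 1.41, 3 ± 0, 2.5 ± 0.707, 1.5 ± 0.707, 3 ± 0 and 3 ± 1.41 in the same order of stages, and every pair of neighbouring stages overlapped or lay within 1 gene. Over phases, regulatory genes averaged 23.7 ± 6.38 per embryonic library and 14.5 ± 4.72 per maternal library (SD, n = 6 each), and the ranges of 14 to 31 and 8 to 20 overlapped through the 2-cell libraries. Catalytic genes averaged 2.5 ± 1.05 per embryonic library and 2.83 ± 0.753 per maternal library, a difference smaller than either SD.

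In shares, 39.7% to 49.2% of regulatory genes were marked in the 8-cell and blastocyst libraries and 12.7% to 31.7% in the other 8. The whole set stood 16.2 to 22.9 percentage points above all genes in 8-cell embryos and blastocysts. At the other stages the gap was −0.280 to 8.30 points. The catalytic share minus the regulatory share was −26.2 to −14.7 points in 8-cell and blastocyst libraries and −13.9 to 12.3 points in the others, where 1 catalytic gene is worth 8.33 points.

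**Figure D1:**
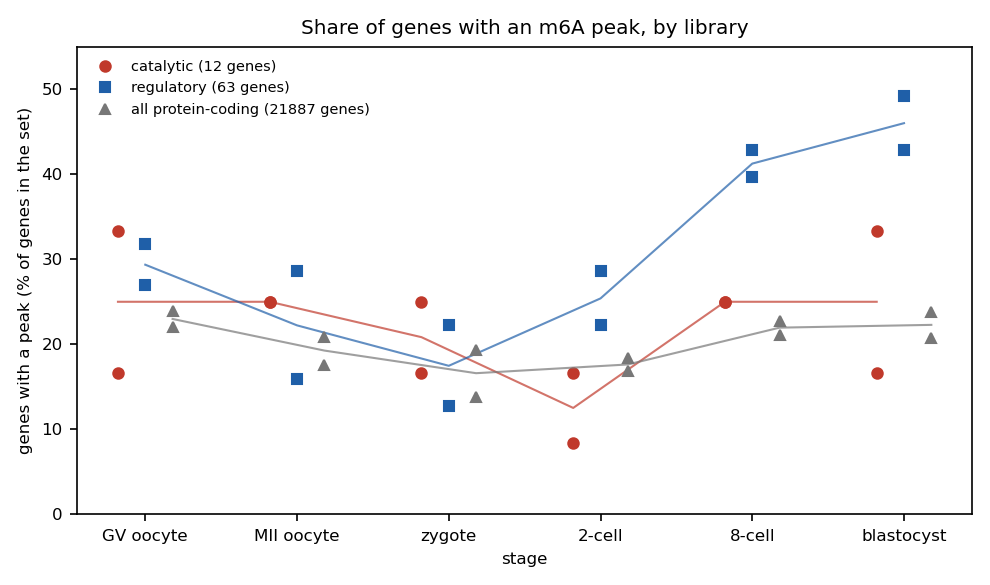
Share of genes with a peak (% of the genes in each set) by stage, 1 point per IP library, for 12 catalytic genes (red circles), 63 regulatory genes (blue squares) and 21887 protein-coding genes (grey triangles); lines join stage means. The regulatory points of 8-cell embryos and blastocysts, 39.7% to 49.2%, lie above every earlier regulatory point, while catalytic points range from 8.33% to 33.3% with no such separation.

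The catalytic genes were 4 for PP1, 2 for PP2A, 3 for calcineurin and 1 each for PP4, PP5 and PP6. Ppp1cb, the PP1 beta isoform that works in myosin phosphatase, had the highest fold enrichment of the set in each of the 8 libraries where it was marked. These were both 2-cell libraries and all 6 maternal libraries, and no 8-cell or blastocyst library had a peak there. Its best peak had a fold enrichment of IP over input, the authors' own value for the peak, of 22.1 and 24.2 at the GV stage, 36.6 and 14.1 at MII, 83.9 and 57.3 in zygotes, and 64.2 and 46.8 in 2-cell embryos. Those peaks ranked between the 95.8 and 100.0 percentile of their own lists. Folds of different lists are printed here but not compared, since the lists were scaled separately, and only ranks within a list are read. The median fold of a list was 5.68 to 6.79 in the embryonic and 4.59 to 5.99 in the maternal libraries. All 8 peaks fell in a single interior region, chr5:32471140-32471996, whose centre lies 12720 bp from the 5′ end and 22145 bp from the 3′ end of the gene. The peak lists do not give the strand of the reads, so any transcript made inside the gene body could carry these peaks.

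The other PP1 catalytic genes were marked seldom. Ppp1ca, the alpha isoform, had a peak in MII oocyte replicate 1 and zygote replicate 2, and Ppp1cc, the gamma isoform, in 8-cell replicate 2 and blastocyst replicate 1. Ppp1ccb, a near copy of Ppp1cc, had none, and how reads were shared between the copies is not given in the sources used here. Ppp2ca, the main PP2A catalytic subunit, was the catalytic gene marked in the most libraries, 5 embryonic and 5 maternal. Its recurrent region, chr11:52121800-52122711, was centred 494 bp from the 3′ end and held a peak in 5 embryonic and 4 maternal libraries. Its closest paralogue, Ppp2cb, had none in its gene body.

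The best peak of Ppp2ca had a fold of 3.49 and 3.67 in GV oocytes, 2.34 and 1.93 in MII oocytes, 3.88 in zygote replicate 1, 3.85 in 2-cell replicate 2, 5.06 and 5.24 in 8-cell embryos, and 5.84 and 7.16 in blastocysts. Its rank was modest everywhere, between the 2.05 and the 56.7 percentile of its list. Ppp3ca, the alpha catalytic subunit of calcineurin, the calcium-dependent phosphatase that responds to the fertilization signal in frog eggs, was marked in 3 embryonic and 2 maternal libraries. Ppp3cb, the beta subunit, was marked in blastocyst replicate 1 and GV oocyte replicate 2. Ppp6c, the catalytic subunit of PP6, was marked in both 8-cell libraries and nowhere else, and Ppp4c in zygote replicate 1 alone. Ppp3cc and Ppp5c had no peak.

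**Figure D2:**
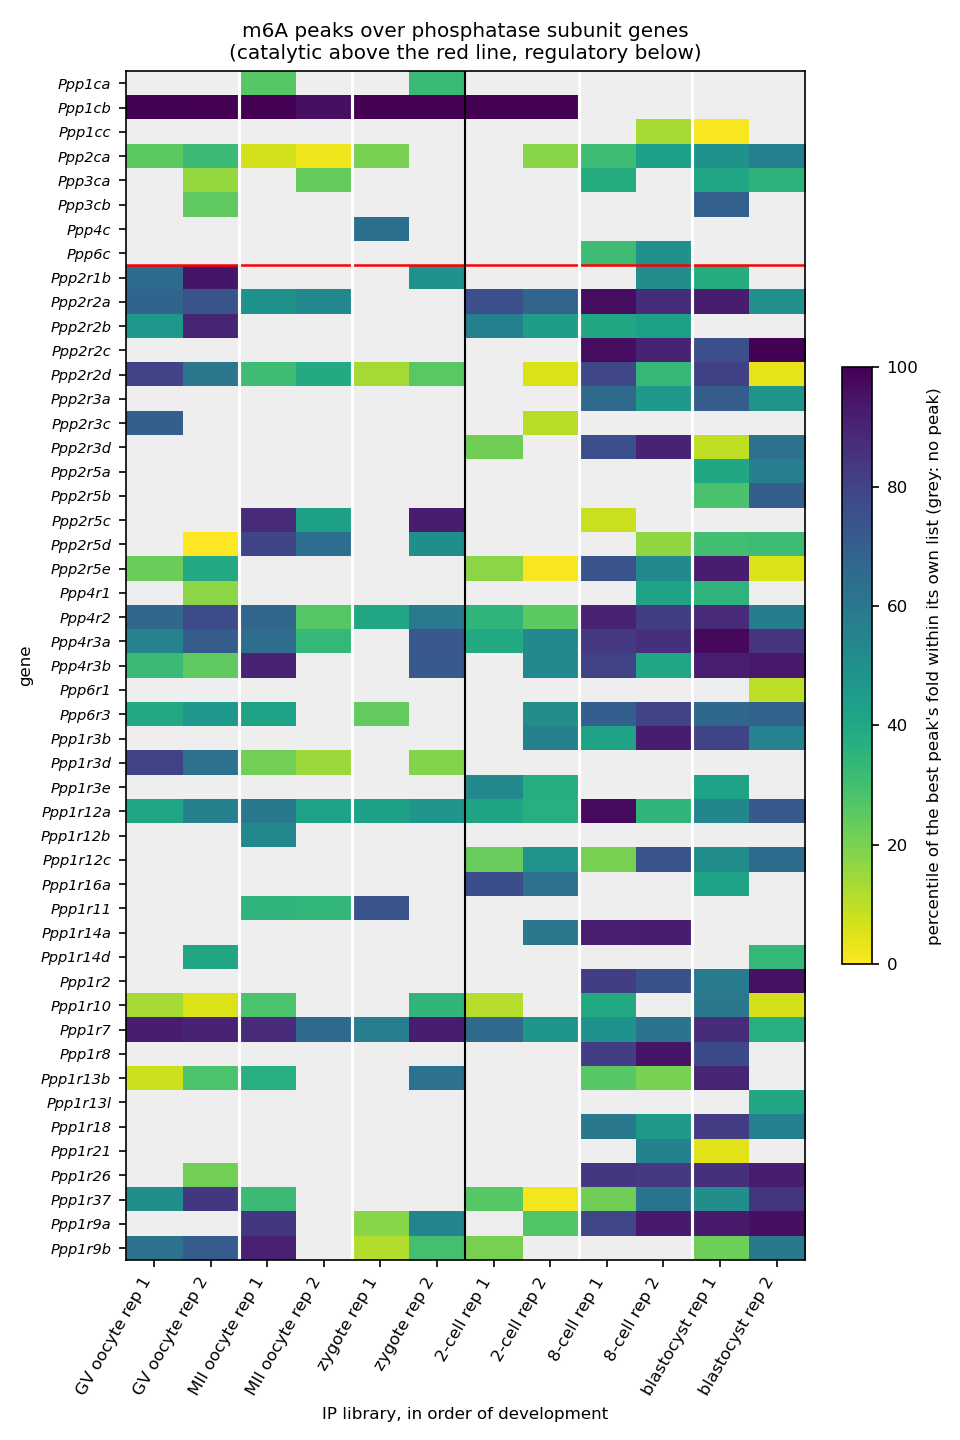
The 49 marked subunit genes (rows) in the 12 IP libraries (columns, GV oocyte to blastocyst); colour gives the percentile of the gene's best peak by fold within that library's list, and grey means no peak. Ppp1cb is dark from GV oocyte to 2-cell and then grey, Ppp4r2, Ppp1r12a and Ppp1r7 are filled in all 12 columns, and the 8-cell and blastocyst columns hold the most filled regulatory rows.

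Among PP2A subunits, the B-type genes, which select substrates, were marked widely. The scaffold gene Ppp2r1b was marked in 2 embryonic and 3 maternal libraries, where its GV oocyte peaks also touched Sik2, and the main scaffold gene Ppp2r1a had no peak. All 4 B genes were marked. Ppp2r2a, whose product is a B55 subunit that acts at mitotic exit, was marked in 6 embryonic and 4 maternal libraries, zygotes being the stage without a peak. Ppp2r2d, another B55 subunit, was marked in 5 embryonic and 6 maternal libraries, from 1 region centred 704 bp from the 3′ end. Ppp2r2b was marked in both libraries of the 2-cell, 8-cell and GV oocyte stages and in no other.

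Ppp2r2c, the B55 gamma gene, was marked only in the 8-cell and blastocyst libraries, all 4 of them. Its best fold was 14.8 and 10.7 in 8-cell embryos and 8.58 and 27.7 in blastocysts, which placed it at the 75.8 to 99.3 percentile of those lists. The region shared by the 4 libraries was chr5:36954380-36954697, centred 540 bp from the 3′ end. In blastocyst replicate 1 the best peak lay outside this region, where the fold was 7.07 at the 62.9 percentile inside it. All 3 B″ genes were marked. Ppp2r3a had the same 4 libraries as Ppp2r2c, with folds of 7.28 and 5.39 in 8-cell embryos and 7.89 and 6.65 in blastocysts. Ppp2r3c was marked in 2-cell replicate 2, where the peak also touched Prorp, and in GV oocyte replicate 1.

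All 5 B′ genes were marked, the family that joins shugoshin at centromeres. Ppp2r5e was marked in 6 embryonic and 2 maternal libraries, and Ppp2r5d in 3 embryonic and 4 maternal libraries. A low-ranking region at the 3′ end of Ppp2r5d also touched the neighbouring gene Mea1. Ppp2r5c was marked in 1 embryonic and 3 maternal libraries, each of those 3 maternal libraries having a peak in a region centred 124 bp from the 5′ end. Ppp2r5a and Ppp2r5b were marked in both blastocyst libraries and in no other. Both genes of the calcineurin B subunit, Ppp3r1 and Ppp3r2, had no peak.

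Of the 5 PP4 regulatory genes, 4 were marked. Ppp4r2, a core subunit of the PP4 complex, was marked in all 12 libraries. Its best fold had a lowest, median and highest value of 4.37, 7.97 and 11.4 in the embryonic libraries and 3.56, 6.02 and 6.75 in the maternal libraries, always in 1 region, chr6:100865712-100866714. Its median percentile was 69.6 in the embryonic and 62.9 in the maternal libraries. Ppp4r3a, which binds substrates for PP4, was marked in 6 embryonic and 5 maternal libraries. Ppp4r3b, its paralogue, was marked in 5 embryonic and 4 maternal libraries, and in each of these 9 a peak covered the start shown above. Ppp4r1 was marked in 2 embryonic libraries and 1 maternal library, and Ppp4r4 in none. Of the PP6 genes, Ppp6r3 was marked in 5 embryonic and 4 maternal libraries, Ppp6r1 in blastocyst replicate 2 only, and Ppp6r2 in none.

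The glycogen-targeting subunits, which bring PP1 to glycogen, showed 3 marked genes of 7 with unlike patterns. Ppp1r3b was marked in 2-cell replicate 2 and all 4 later libraries, with folds of 6.31 in that 2-cell library, 5.63 and 11.3 in 8-cell embryos and 9.15 and 7.09 in blastocysts, and in no maternal library. Ppp1r3d was marked in no embryonic library and in 5 maternal libraries, with folds of 7.34 and 5.40 in GV oocytes, 3.25 and 2.92 in MII oocytes and 3.38 in zygote replicate 2. The groups of these 2 paralogues therefore lay on opposite sides. Ppp1r3e was marked in both 2-cell libraries and blastocyst replicate 1.

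Of the 5 myosin-targeting genes, 4 were marked. Ppp1r12a, the main myosin phosphatase targeting subunit, was marked in all 12 libraries through a region centred 2683 bp from the 3′ end. Its best fold had a lowest, median and highest value of 4.70, 5.95 and 15.5 in the embryonic libraries and 4.32, 5.12 and 5.499 in the maternal libraries. Its median percentile was similar, 48.0 in the embryonic and 45.3 in the maternal libraries. Ppp1r12c, a related targeting subunit, was marked in all 6 embryonic libraries, with folds of 4.42 and 5.81 in 2-cell embryos, 4.30 and 7.62 in 8-cell embryos and 6.06 and 7.81 in blastocysts, and in no maternal library. Ppp1r16a was marked in both 2-cell libraries and blastocyst replicate 1, and Ppp1r12b in MII oocyte replicate 1 alone.

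Of the 10 PP1 inhibitor genes, 4 were marked. Ppp1r2, inhibitor-2, was marked in the same 4 libraries as Ppp2r2c, with folds of 9.25 and 7.78 in 8-cell embryos and 6.62 and 15.3 in blastocysts. Ppp1r11, inhibitor-3, was marked in no embryonic library and in both MII libraries and zygote replicate 1. Ppp1r14a, a kinase-activated inhibitor of myosin phosphatase, was marked in 3 embryonic libraries and no maternal library, and Ppp1r14d in 1 of each. Inhibitor genes known from brain, Ppp1r1a, Ppp1r1b and Ppp1r17, had no peak. Pseudogene copies of Ppp1r2 exist, so its counts are uncertain to the extent that reads were shared.

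The nuclear PP1 partners were all marked, 3 of 3. Ppp1r7, which binds newly made PP1 and takes part in its loading, was marked in all 12 libraries, with a lowest, median and highest best fold of 5.73, 6.21 and 10.9 in the embryonic libraries and 6.11, 9.08 and 12.6 in the maternal libraries. Its median percentile was 55.1 in the embryonic and 88.9 in the maternal libraries. Ppp1r10, which targets PP1 to chromatin and RNA polymerase II, was marked in 4 embryonic and 4 maternal libraries. Ppp1r8, a nuclear inhibitor that binds splicing factors, was marked in both 8-cell libraries and blastocyst replicate 1, at folds of 9.39, 12.4 and 8.87, and in no other.

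Of 14 further PP1 partners, 8 were marked. Ppp1r37 was marked in 6 embryonic and 3 maternal libraries, and Ppp1r9a and Ppp1r9b, the actin-binding scaffolds neurabin and spinophilin, in 5 embryonic with 3 maternal and 3 embryonic with 5 maternal libraries. Ppp1r18, phostensin, an actin-binding partner, was marked in the 4 8-cell and blastocyst libraries only, and Ppp1r26 in those 4 and GV oocyte replicate 2. Ppp1r13b, which binds p53, was marked in 3 embryonic and 4 maternal libraries, and its relative Ppp1r13l in blastocyst replicate 2. Ppp1r21 was marked in 8-cell replicate 2 and blastocyst replicate 1. The remaining genes with no peak in any library were Ppp1r3a, Ppp1r3c, Ppp1r3f, Ppp1r3g, Ppp1r16b, Ppp1r14b, Ppp1r14bl, Ppp1r14c, Ppp1r1c, Ppp1r27, Ppp1r32, Ppp1r35, Ppp1r36 and Ppp1r42. In all 26 of the 75 had none, 34.7%, against 54.8% of all protein-coding genes.

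Embryonic and maternal libraries were compared gene by gene with Fisher's exact test (2-sided, 6 libraries against 6), with Benjamini-Hochberg adjustment over the 2310 protein-coding genes marked in 5 to 7 libraries, the totals at which an unadjusted p under 0.05 can be reached. Of 10 subunit genes tested, 3 were called embryonic, against 21.6% of all genes tested, and 1 was called maternal, against 28% of all genes tested. Taken over every gene, called or not tested, 3 of 75 compare with 2.28% embryonic and 1 of 75 with 2.96% maternal. Neither share is a result about the set at these numbers.

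The called genes were Ppp1r12c, marked in 6 of 6 embryonic and 0 of 6 maternal libraries (adjusted p = 0.00963), Ppp2r3d and Ppp1r3b, each in 5 of 6 and 0 of 6 (adjusted p = 0.0306 each), and Ppp1r3d, in 0 of 6 and 5 of 6 (adjusted p = 0.0306), by Fisher's exact test. Ppp2r3d, a B″ subunit gene near the end of chromosome 9, had folds of 4.36 in 2-cell replicate 1, 8.46 and 10.6 in 8-cell embryos and 3.26 and 7.52 in blastocysts. No catalytic gene was called by Fisher's exact test, 0 had an unadjusted p under 0.05, and Ppp3ca was the only one tested. The 4 calls held in each of the 12 fits that left out 1 library, with adjusted p between 0.0110 and 0.0436. These fits could hardly drop a call, so they are no measure of stability. With fewer libraries, genes marked in 4 libraries are also tested, and these genes have no peak in the other phase. With the number of peaks made equal in every list, Ppp1r3b (4 and 0 libraries) and Ppp2r3d (3 and 0) were no longer called, and with peaks near gene ends only, Ppp1r3b (4 and 0) was not. With each list limited to folds no lower than its own median, none of the 4 was called by Fisher's exact test: Ppp1r12c was marked in 3 embryonic and 0 maternal libraries, Ppp2r3d in 3 and 0, Ppp1r3b in 4 and 0, and Ppp1r3d in 0 and 2. Ppp6r3 was then the 1 gene called, and 1 gene had an unadjusted p under 0.05. Because each phase is made of 3 stages with 2 libraries each, libraries of 1 phase are not fully independent, and the p-values speak of these 12 libraries.

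The 2-cell libraries decided further calls. Without 2-cell replicate 1, Ppp1r2, Ppp1r18, Ppp2r2c and Ppp2r3a were called embryonic and Ppp1cb maternal (Fisher's exact test, adjusted p = 0.0305 each), and the same 5 genes were called without 2-cell replicate 2 (adjusted p = 0.0315 each). With all libraries these genes were not tested, being marked in 4 or 8 libraries (unadjusted p = 0.0606 each, Fisher's exact test). Calls over all genes rose too. Without 2-cell replicate 1 they were 815 embryonic and 909 maternal of 3468 genes tested. Without 2-cell replicate 2 they were 769 and 901 of 3475, against 498 and 647 of 2310 with all libraries. Ppp2r5e was called embryonic without GV oocyte replicate 1 or without GV oocyte replicate 2 (6 embryonic libraries and 1 maternal library, Fisher's exact test, adjusted p = 0.0406 and 0.0400). Over all genes tested, calls were then 597 embryonic and 708 maternal of 3497, and 630 and 697 of 3505. Leaving out a library that lacks a gene's pattern lowers its p by itself. Keeping the higher-scoring peaks alone (score no lower than the median over the 12 lists), 0 subunit genes were called and 0 had an unadjusted p under 0.05 by Fisher's exact test, since the tested genes fell to 4. Ppp1r12c was then marked in 4 embryonic and 0 maternal libraries, Ppp1r3b in 3 and 0, Ppp2r3d in 1 and 0, and Ppp1r3d in 0 and 3. That limit removed a larger share of embryonic than of maternal peaks.

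Counted without a test, 29 of the 75 genes were marked in more embryonic than maternal libraries (38.7%, against 22.3% of all protein-coding genes) and 12 in more maternal than embryonic libraries (16%, against 16.7%). The regulatory genes made up 26 of the first number and 9 of the second, and the catalytic genes 3 of each. Genes marked in embryonic libraries only numbered 18, or 24%, against 15.3% of all genes. Genes marked in maternal libraries only numbered 5, or 6.67%, against 7.32%. Among genes with any peak, embryonic-only genes were 18 of 49 in the set and 3349 of 9903 over all genes. Maternal-only genes were 5 of 49 and 1602 of 9903. Genes marked in more embryonic libraries were 29 of 49 and 4889 of 9903, and in more maternal libraries 12 of 49 and 3651 of 9903. The 4 genes with peaks in each 8-cell and blastocyst library but at no earlier stage were 5.33% of the set, against 1.01% of all genes, and the 3 genes marked in all 12 libraries were 4%, against 3.78%.

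From stage to stage, a gene was counted as gained when both libraries of the later stage and neither of the earlier stage had a peak, and as lost in the opposite case. With 2 libraries per stage no test of a step can pass the threshold. In MII against GV oocytes, 2 subunit genes were gained (Ppp2r5c and Ppp1r11, 2.67% of the set, against 1.51% of all genes) and 3 were lost (Ppp2r1b, Ppp2r2b and Ppp2r5e, 4%, against 3.96%). In zygotes against MII oocytes, 0 were gained, against 0.302% of all genes, and 1 was lost (Ppp2r2a, 1.33%, against 1.15%).

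In 2-cell embryos against zygotes, 7 genes were gained, 9.33% against 4.47% of all genes, and 0 were lost, against 3.59% of all genes. All 7 were regulatory: 3 PP2A B-type genes that had been marked earlier in oocytes (Ppp2r2a, Ppp2r2b and Ppp2r5e), Ppp1r37, and 3 PP1 targeting genes without a maternal peak (Ppp1r3e, Ppp1r12c and Ppp1r16a). The 3 B-type genes mostly had their 2-cell peaks at other places than in oocytes. No 2-cell peak of Ppp2r2a or Ppp2r2b overlapped an oocyte peak of the same gene. The Ppp2r5e region marked in both GV libraries, chr12:75453392-75453969, had no 2-cell peak. Its 2-cell region, chr12:75515274-75515893, was marked in GV oocyte replicate 2 but not in replicate 1. In 8-cell against 2-cell embryos, 8 genes were gained, 10.7% against 4.93% of all genes. They were Ppp6c, Ppp2r2c, Ppp2r3a, Ppp1r2, Ppp1r8, Ppp1r13b, Ppp1r18 and Ppp1r26. At the same step 3 were lost, 4% against 2.56%, namely Ppp1cb, Ppp1r3e and Ppp1r16a. In blastocysts against 8-cell embryos, 3 were gained (Ppp2r5a, Ppp2r5b and Ppp1r9b, 4% against 2.17%) and 3 were lost (Ppp6c, Ppp2r2b and Ppp1r14a, 4% against 1.94%). With the higher-scoring peaks alone the 2-cell step had 1 gain and 1 loss and the 8-cell step 8 gains and 1 loss. With all peaks, the 5 steps together had 20 gains and 10 losses, and Ppp6c and Ppp1cb were the catalytic genes among them.

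The genes carried 422 peaks over the 12 lists, of which 5 touched another protein-coding gene. Peaks of all lists were also merged into regions, a choice made after the gene results were seen. The set had 134 regions, of which 52 (38.8%) held a peak in 1 library only and 21 (15.7%) in at least 6 libraries. Over all protein-coding gene bodies these shares were 35.6% and 23.1%. Of 16 subunit regions tested by the same Fisher's exact test, 5 were called embryonic, against 17.2% of all regions tested, and 2 were called maternal, against 32.2%.

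Region by region, 3 genes not called as whole genes had a called region. Ppp4r3a had a region centred 1138 bp from its 3′ end in 6 embryonic and 5 maternal libraries, and an interior region, chr12:101058330-101059030, in 5 embryonic and 0 maternal libraries (Fisher's exact test, adjusted p = 0.0307). Ppp1r7 had a region centred 1437 bp from its 3′ end in all 12 libraries, and another, chr1:93359808-93360062, in 0 embryonic and 5 maternal libraries (adjusted p = 0.0307, same exact test), the 6th maternal library, GV oocyte replicate 1, having none. Ppp2r5e had a region, chr12:75515274-75515893, in 6 embryonic libraries and 1 maternal library (adjusted p = 0.0307, same exact test), with a second region in 3 embryonic and 2 maternal libraries. The other 4 called regions belonged to the 4 genes called above, among them the Ppp1r12c region, chr7:4481711-4482094, centred 383 bp from the 3′ end (adjusted p = 0.0102, same exact test). Whether a region is exonic or intronic was not analysed here, because the gene table holds gene bodies only.

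**Figure D3:**
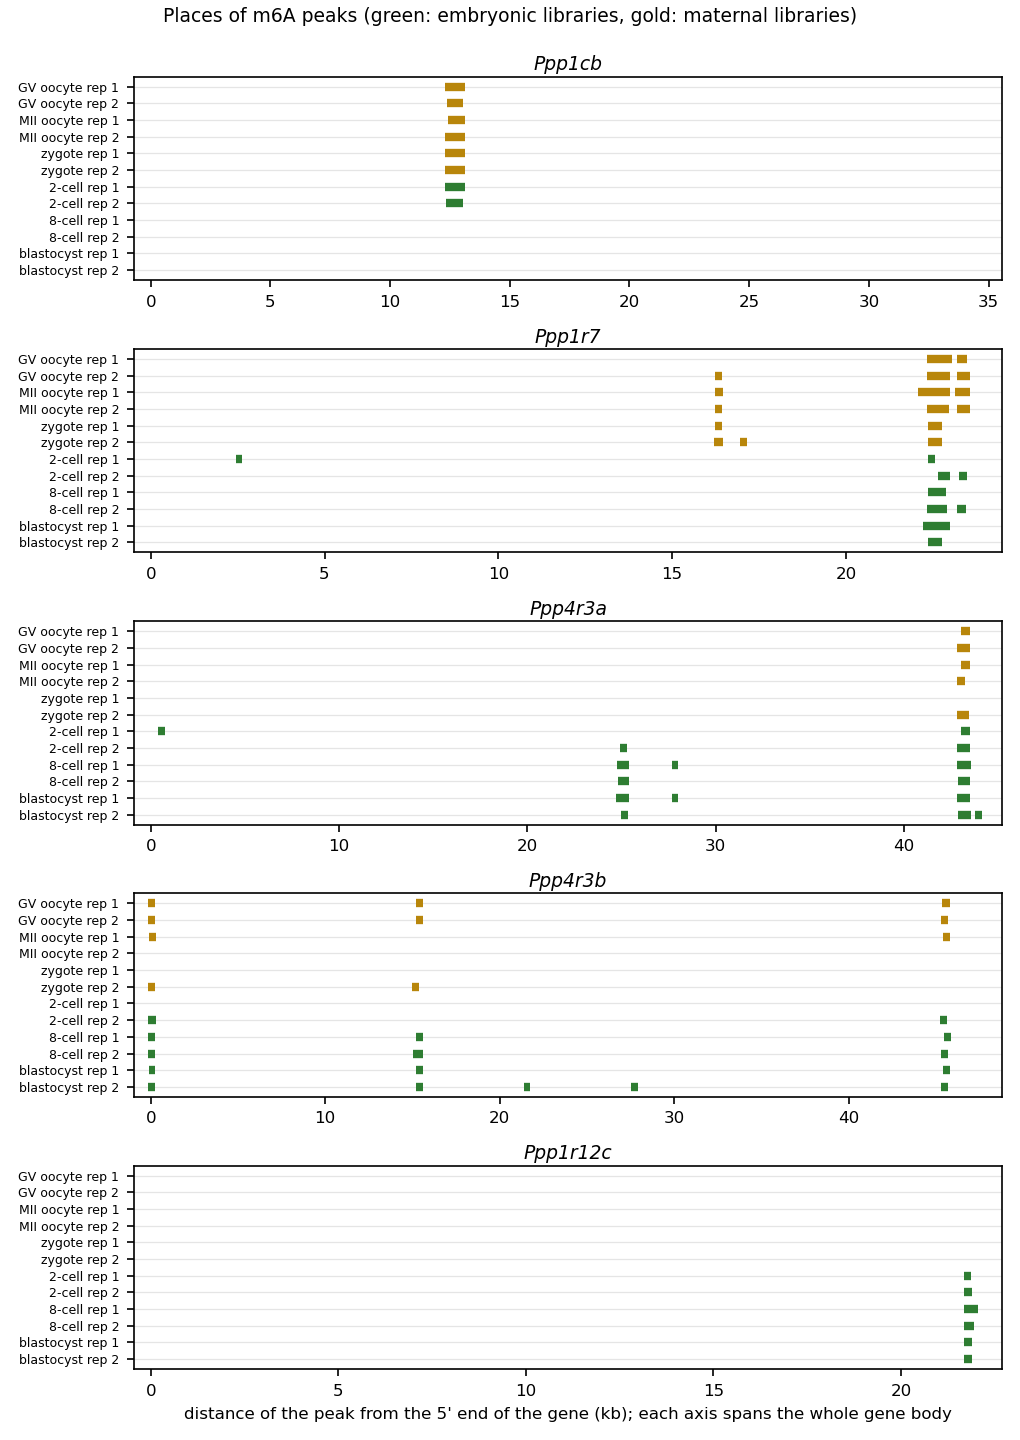
Places of peaks along 5 subunit genes as distance from the 5′ end (kb), 1 row per IP library from GV oocyte to blastocyst, green for embryonic and gold for maternal libraries. Ppp1cb has 1 interior region in 8 libraries, Ppp1r7 and Ppp4r3a have a 3′ region in 12 and 11 libraries beside an interior one found in 5 libraries of 1 phase, Ppp4r3b has peaks at its start in 9 libraries, and Ppp1r12c has 1 region near its 3′ end in the 6 embryonic libraries.

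Place along the gene was measured where the strand was known, for genes longer than 4000 bp, which gave 330 subunit peaks on 37 genes. Of these, 33.0% were centred within 2000 bp of the 3′ end, 13.03% within 2000 bp of the 5′ end and 53.9% elsewhere, against 27.7%, 6.43% and 65.8% for the peaks of all protein-coding genes. The 28 catalytic peaks divided as 42.9%, 14.3% and 42.9% and the 302 regulatory peaks as 32.1%, 12.9% and 55.0%, in the same order of places. Peaks near the 5′ end made up 8.5% of subunit peaks in the embryonic libraries and 20% in the maternal libraries, against 5.86% and 7.02% for all genes. The per-library share ranged from 2.63% to 25% in the embryonic libraries and from 5.56% to 30.4% in the maternal libraries, so the ranges overlapped. Few genes carry these 5′ peaks, which recur from library to library and are not independent observations. They recur at Ppp4r3b, Ppp1r9b and Ppp1r10 in libraries of both phases, and at Ppp2r5c in maternal libraries only.

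**Figure D4:**
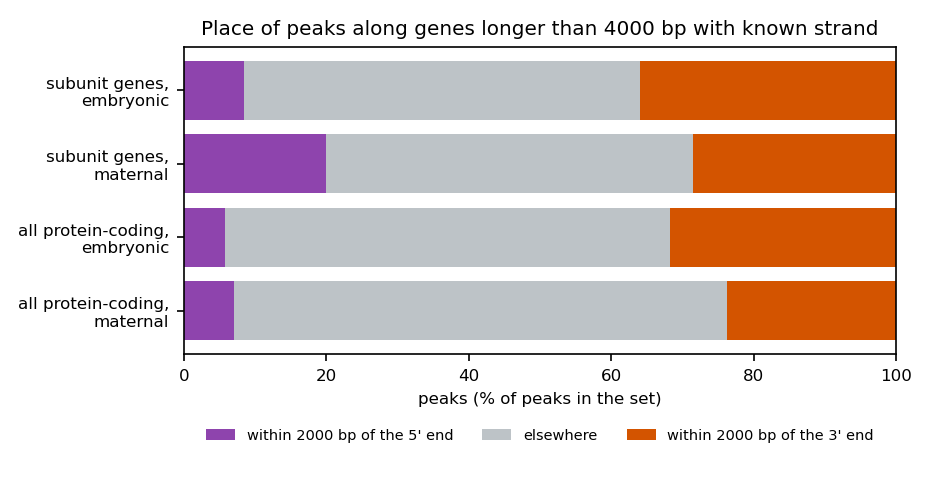
Share of peaks (%) centred within 2000 bp of the 5′ end (purple), within 2000 bp of the 3′ end (orange) or elsewhere (grey), for subunit genes and all protein-coding genes longer than 4000 bp with known strand, in embryonic and maternal libraries. The 5′ share is 8.5% for subunit genes in embryonic libraries and 20% in maternal libraries, and 5.86% and 7.02% for all genes.

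Other genes of the same pathways, outside the symbol rule, were counted from 4 lists, which held 8, 2, 3 and 5 tested genes in the order below. Over all protein-coding genes, 45.2% were marked in at least 1 library. Of all genes tested, 21.6% were called embryonic and 28% maternal. At these numbers the calls are not a result about the lists. Of 21 further PP2A partners, 16 were marked in at least 1 library, 1 was called embryonic and 2 were called maternal. The embryonic one was Strn3 (6 embryonic and 0 maternal libraries, adjusted p = 0.00963, Fisher's exact test), and the maternal ones were Strn (0 and 6, adjusted p = 0.00963, same exact test) and Strip2 (0 and 5, adjusted p = 0.0306, same exact test). All 3 belong to the striatin complexes of PP2A, in which striatins act as B-type subunits. Mastl, the Greatwall kinase that leads to inhibition of PP2A with B55, and Sgo2a, a shugoshin that brings PP2A to centromeres, were marked in all 12 libraries. Ensa and Arpp19, the inhibitors that this kinase activates, were marked in 0 embryonic and 3 maternal libraries and in 1 and 3.

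Of 17 further PP1 partners, 15 were marked, 0 were called embryonic (0 with an unadjusted p under 0.05) and 1, Phactr3, was called maternal (0 embryonic and 6 maternal libraries, adjusted p = 0.00963, Fisher's exact test). Cdca2, Mki67, Rif1 and Rrp1b, which bring PP1 to chromosomes or the nucleolus, were marked in all 12 libraries. Of 16 partners of calcineurin, PP4 and PP6, 9 were marked and 1, Nfatc3, a transcription factor that calcineurin activates, was called embryonic (6 embryonic and 0 maternal libraries, adjusted p = 0.00963, same exact test). Of 21 phosphatases of other families, 15 were marked and 2, Ppm1e (0 and 5) and Ppm1h (1 and 6), were called maternal (adjusted p = 0.0306 each, same exact test). Per library, 6 to 10 of these 21 were marked in the embryonic libraries and 7 to 13 in the maternal libraries.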

How the data were processed

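m6A was measured by immunoprecipitation from pooled mouse oocytes and embryos, 2 IP libraries for each of 6 stages. Per the submitters' processing notes, MACS2 2.1.2 and HISAT2 2.1.0 were used with mm10; bedtools 2.28.0, deepTools 3.2.0, SAMtools 1.9, cutadapt 1.8.1 and FastQC 0.11.8 are also listed, all without settings. The deposited lists give, per summit, the authors' score, fold enrichment ratio, −log10 p and q values and summit distance from the peak start; per the peak names, each IP library was called alone with its own input. Read numbers are absent from the lists, so depth is unknown and no counting interval was set.

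Rows of the same peak were collapsed, leaving 113764 peaks of 200 to 3754 bp from 143579 summits. Gene bodies came from RefSeq GRCm38.p6, and strand, known for 60 of the 75 genes, from its promoter table. Tests used Python 3.11.15 and SciPy 1.17.1: Fisher's exact test per gene over all protein-coding genes marked in 5 to 7 libraries, called at an adjusted p of 0.05, tested on simulated data. Replicates of a stage are biological per the labels. Named were all catalytic genes, called genes, genes gained or lost at a step, genes marked in all 12 libraries, and up to 3 per role marked in most libraries; those marked less often were added after their values were seen. The genes, lists and rules were chosen with earlier results of these data known. Alternatives were score, fold, overlap, gene-end and single-gene limits, equal peak numbers, the replicate block, and leaving out each library.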

Additional observations from a re-analysis of the deposited data

How the results depend on the processing

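With a score no lower than the median over all lists, 0 genes were called (0 embryonic and 0 maternal), catalytic genes averaged 1.67 and regulatory genes 10.9 per library, the regulatory difference was 2.5, and steps gave 10 gains and 5 losses. With all peaks these were 4 (3 and 1), 2.67, 19.1, 9.17, 20 and 10. With 6914 peaks per library, 2 were called (1 and 1), with 14.7 regulatory genes per library. Restricting each list to folds no lower than its own median, 1 was called (1 and 0, Ppp6r3 in 5 embryonic and 0 maternal libraries, adjusted p = 0.0430, Fisher's exact test), with averages of 0.917 and 10.8 and 11 gains. With peaks within 2000 bp of a gene end the averages were 1.33 and 12.3. Merged regions, chosen after seeing the data, gave 7 calls (5 and 2). Leaving out 1 library gave 4 to 9 calls (3 to 7 and 1 to 2), a catalytic difference of −0.633 to −0.0333, a regulatory difference of 7.7 to 11.1, and averages of 2.55 to 2.82 and 18 to 20.1. Calls over all genes also moved. Embryonic and maternal calls were 190 and 712 of 1700 genes tested with the score limit and 510 and 515 of 1944 with 6914 peaks per library. They were 225 and 344 of 1614 with the fold limit, and 498 and 647 of 2310 with all peaks. Without 1 library they were 501 to 815 and 675 to 909, of 3037 to 3505. The replicate block kept the 4 calls, 3 embryonic and 1 maternal (exact stratified test, adjusted p = 0.0223 for Ppp1r12c and 0.0403 for the other 3). Deviations from stage means correlated at −0.165 (zygotes and MII oocytes) to 0.0249 over 15 stage pairs, 0 of them above 0.1. With 2 libraries per stage, these values cannot tell whether replicate numbers pair the samples. The regulatory embryonic minus maternal difference kept its sign under these alternatives. The sign of the 4 called genes could not turn. Each lacked peaks in the other phase, and the alternatives add no peak. The catalytic difference, −0.333 with all peaks, was 0.167 with equal peak numbers and 0 with the score or the gene-end limit. The balance of gains and losses at single steps also shifted: MII against GV oocytes gave 2 gains and 0 losses with equal peak numbers and 1 and 0 with the score limit (2 and 3 with all peaks), blastocysts against 8-cell embryos 4 and 2 with equal peak numbers and 0 and 2 with the score limit (3 and 3), and 2-cell embryos against zygotes 1 and 1 with the score limit (7 and 0). The cause of these shifts was not tested, except that fewer genes enter the test when peaks are removed. Depth is unknown, so an absent peak is no measure of absence.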

Other observations

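Peaks within 5000 bp of a gene without a peak of its own were found for 4 of the 26 unmarked genes. The nearest one to Ppp2cb lay 1231 bp away, over Ubxn8, in 3 embryonic and 2 maternal libraries. Ppp1r14b had a peak 424 bp downstream, over Fkbp2, in 2 embryonic libraries and no maternal library, and Ppp1r16b one 4553 bp upstream in 1 embryonic library. Downstream of Ppp1r35, the gene Mepce carried peaks, of which the most recurrent lay in 4 embryonic and 5 maternal libraries. None of these was counted for the subunit genes.

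Of the Ppp1r2 pseudogenes, Ppp1r2-ps1 and Ppp1r2-ps7 carried 1 peak each, both in an embryonic library, with folds of 6.23 and 7.99. The noncoding gene Ppp2r2cos, inside Ppp2r2c, had 0 peaks.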
